A study of Mus musculus with 34 samples.

Results

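The transcriptome of the stromal vascular fraction (SVF) of visceral fat was compared between male C57BL/6J mice after 8 weeks on a high fat diet (HFD) and after 8 weeks on a control diet (CHOW). The comparison took 10 of the 34 RNA-seq libraries of the series, 6 on HFD and 4 on CHOW, and every gene that passed a filter on low values. The mice started the diets at 6 weeks of age and were thus 14 weeks old at the end, when food was withdrawn for 6 hours before death. The HFD drew 60% of its kcal from fat. The CHOW mice received 1 of the control formulas D12450B and D12450K (Research Diets), and the sources used here do not tell which mouse ate which. Both groups share strain, sex, age, fast and processing. The fat pad was digested with collagenase, the floating adipocytes were taken off, and red cells in the pellet were lysed in a buffer before RNA extraction. The labels do not say whether each library is 1 mouse, so the p-values measure a spread between libraries that may be partly technical. For the 8 week comparison this spread is pooled over the 21 libraries of 8 and 20 weeks.

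The SVF is a mixture of macrophages and other immune cells, fibroblast-like progenitors, endothelial and mural cells and mesothelium. In lean visceral fat most macrophages are resident cells that lie along vessels. In obesity, lipid-laden macrophages that carry Trem2, Gpnmb and Cd9 gather around dying adipocytes, the fibroblasts lay down collagen, and the early weeks of HFD are when this remodeling starts. A marker list in a bulk library describes RNA in a mixed pellet, and fewer cells of a type cannot be told apart from less RNA per cell.

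Values are TPM, each gene's share of its library's transcripts after correction for transcript length. TPM keeps no read depth, so depth is unknown. Between 14116 and 15441 genes reached 1 TPM per library. RNA that the SVF does not normally make was uneven. Hemoglobin genes took 3.52% to 9.03% of TPM on CHOW and 3.31% to 26.7% on HFD, with the highest share in HFD replicate 6. Seminal vesicle genes took 12.3% of HFD replicate 3, where Svs5 was the top gene, and summed to at most 16.7 TPM in any other library. Germ cell genes summed to 29.1 to 1245 TPM, with the highest sum in HFD replicate 4. Because TPM is a share, such RNA lowers all other genes of a library, so counts of genes are given below also without HFD replicates 3 and 6. The first principal component (23.9% of variance) set HFD replicate 3 apart and the second (20.9%) CHOW replicate 3, and neither separated the diets. As for the label, the macrophage list (10 genes) summed to between 7908 and 11061 TPM on CHOW and the fibroblast and progenitor list (15 genes) to between 9279 and 17434 TPM, so the defining cells of the fraction were present in all CHOW libraries. On HFD those sums were 5299 to 12613 TPM and 9546 to 15942 TPM.

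Of 16808 genes tested, 4 passed an adjusted p of 0.05 (limma on log2(TPM + 1), Benjamini-Hochberg adjustment over all genes tested), which is 0.0238% of them. All 4 were lower on HFD, and none of them passed in a fit of the 8 week libraries alone. Every log2 fold change below is HFD minus CHOW on the log2(TPM + 1) scale, on which changes of low genes look smaller than they are. At an unadjusted p under 0.05, 1630 genes (9.7%) remained, 351 (2.09%) higher and 1279 (7.61%) lower on HFD. Over all genes the median log2 fold change was -0.08. Without HFD replicates 3 and 6 that median was 0.06, a shift of more than 0.1, and the unadjusted split turned to 1391 higher (8.28%) and 702 lower (4.18%). The direction in which most genes lean at 8 weeks therefore rested on those libraries, while 5 of the 12 genes called without them were lower on HFD. Of the genes called, 57.1% (of 7) were higher with quantile normalization and 62.5% (of 8) with median-ratio scaling, against 0% of the 4 on TPM as deposited. In 57 genes (0.339%) all HFD libraries lay above all CHOW libraries, and in 297 genes (1.77%) all lay below.

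**Figure D1:**
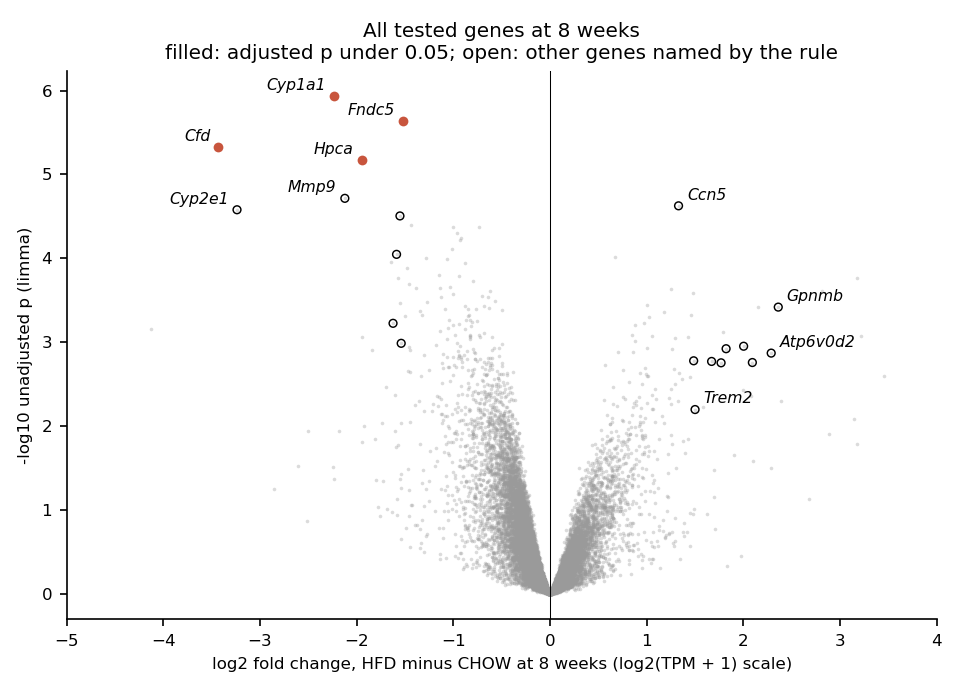
Each point is 1 of the 16808 tested genes, with the log2 fold change (HFD minus CHOW at 8 weeks) on the x axis and the -log10 of the unadjusted limma p on the y axis. Cfd, Cyp1a1, Hpca and Fndc5 (filled) passed the adjusted threshold, and the open circles are other genes picked by the naming rule, such as Ccn5 and Gpnmb on the higher side.

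Cfd encodes adipsin (complement factor D), a serine protease of the alternative complement pathway that adipocytes secrete, and it is known to be low in obese mice. Cfd (ENSMUSG00000061780.5, chromosome 10, 79890853 to 79892655, GRCm38) was at 587, 801, 375 and 817 TPM on CHOW and between 10.8 and 197 TPM on HFD (median 58.4). The groups did not overlap, and HFD replicates 2 and 4 held the lowest values, 10.8 and 25.4 TPM. Cfd fell by 3.43 (SE 0.56, adjusted p 0.0265). Cyp2e1, a microsomal monooxygenase that is abundant in adipocytes and liver, had a like profile, with 154, 181, 77.7 and 149 TPM on CHOW and between 2.85 and 54.5 TPM on HFD (median 10.4). Its groups did not overlap either, and HFD replicates 2 and 4 were again the lowest. Cyp2e1 differed by -3.24 (SE 0.60, adjusted p 0.0632) and did not pass the threshold.

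**Figure D2:**
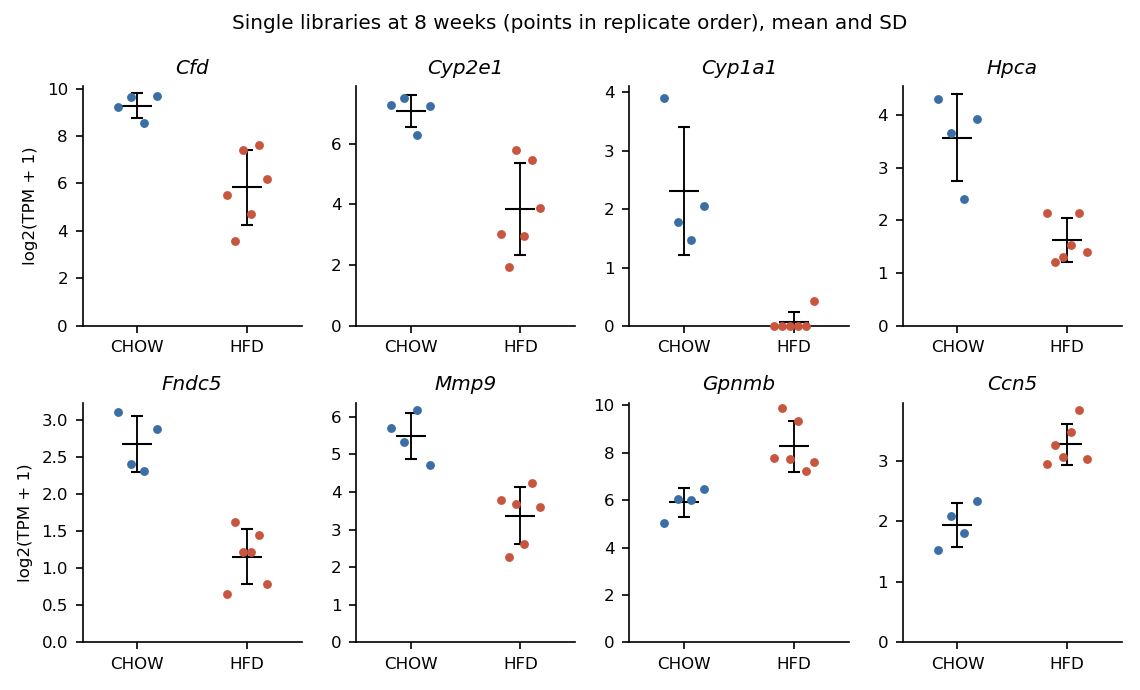
Log2(TPM + 1) of 8 genes in each of the 4 CHOW (blue) and 6 HFD (red) libraries at 8 weeks, in replicate order, with the mean (bar) and SD (whiskers). The groups do not overlap in any of the 8 panels, and Cyp1a1 was at 0 in 5 of the 6 HFD libraries.

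The second group of interest was the aryl hydrocarbon receptor (AhR) pathway. AhR is a ligand-activated transcription factor that senses plant indoles, flavonoids and pollutants. With its partner ARNT it binds DNA at a core of GCGTG and induces the cytochromes Cyp1a1 and Cyp1b1 and the quinone reductase Nqo1. Cyp1a1 (ENSMUSG00000032315.5, chromosome 9, 57687928 to 57703824) was at 14, 2.42, 1.79 and 3.17 TPM on CHOW. On HFD it was listed at 0 in 5 libraries and at 0.340 TPM in replicate 6. No HFD library reached the lowest CHOW library, although CHOW replicate 1 was well above the other CHOW libraries. Cyp1a1 fell by 2.24 (SE 0.33, adjusted p 0.0194). Nqo1 was at 9.85, 7.8, 8.37 and 5.63 TPM on CHOW and between 2.78 and 7.75 TPM on HFD (median 4.33), with 1 HFD library inside the CHOW range, and differed by -0.66 (SE 0.21, adjusted p 0.278). Cyp1b1 was at 52.7, 55.8, 54.1 and 46.4 TPM on CHOW and between 26.7 and 47.7 TPM on HFD (median 32), a difference of -0.55 (SE 0.19, adjusted p 0.331). Of the 7 tested AhR genes, these 3 were lower at an unadjusted p under 0.05 and none was higher, and all 7 log2 fold changes were below 0 (median -0.29). The same 3 genes counted as lower without HFD replicates 3 and 6. Of all genes 7.61% were lower with those 2 libraries and 4.18% without them. At 20 weeks Cyp1a1 was again lower on HFD (-1.55, adjusted p 0.00282), while Nqo1 and Cyp1b1 differed by -0.28 and -0.09 and did not pass.

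The 250 bases before the start sites of the AhR genes and of Hpca and Fndc5 are shown because these are the genes whose values the AhR result and the chromosome 4 result turn on. The letters GCGTG were searched on both strands, so that CACGC counts as a match on the other strand, and each match is in capitals. Sequences are from RefSeq (GRCm38.p6), read 5′ to 3′ on the strand of the gene. Cyp1a1 lies at chr9:57697363-57697612 on the plus strand, Cyp1b1 at chr17:79715062-79715311 and Nqo1 at chr8:107403206-107403455 on the minus strand, Hpca (the first of 3 annotated start sites) at chr4:129121748-129121997 on the minus strand and Fndc5 at chr4:129136749-129136998 on the plus strand.
Cyp1a1: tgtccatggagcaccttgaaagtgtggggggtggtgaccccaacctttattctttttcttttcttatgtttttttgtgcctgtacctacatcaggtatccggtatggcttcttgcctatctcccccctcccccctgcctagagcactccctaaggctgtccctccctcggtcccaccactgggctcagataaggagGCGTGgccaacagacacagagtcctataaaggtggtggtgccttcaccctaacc
Cyp1b1: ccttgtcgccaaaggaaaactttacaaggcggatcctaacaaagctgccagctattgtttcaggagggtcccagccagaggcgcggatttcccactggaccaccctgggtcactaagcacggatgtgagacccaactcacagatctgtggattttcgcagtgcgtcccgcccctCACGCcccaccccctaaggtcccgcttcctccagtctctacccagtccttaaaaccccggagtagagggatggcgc
Nqo1: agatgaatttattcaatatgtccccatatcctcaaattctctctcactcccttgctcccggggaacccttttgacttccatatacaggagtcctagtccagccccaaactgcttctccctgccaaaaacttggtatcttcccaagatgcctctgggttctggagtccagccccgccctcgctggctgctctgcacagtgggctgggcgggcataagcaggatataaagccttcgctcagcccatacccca
Hpca: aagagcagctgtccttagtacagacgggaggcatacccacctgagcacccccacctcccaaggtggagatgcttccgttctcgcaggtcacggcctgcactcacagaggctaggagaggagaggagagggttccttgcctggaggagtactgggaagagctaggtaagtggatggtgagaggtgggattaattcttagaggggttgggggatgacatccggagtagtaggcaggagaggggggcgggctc
Fndc5: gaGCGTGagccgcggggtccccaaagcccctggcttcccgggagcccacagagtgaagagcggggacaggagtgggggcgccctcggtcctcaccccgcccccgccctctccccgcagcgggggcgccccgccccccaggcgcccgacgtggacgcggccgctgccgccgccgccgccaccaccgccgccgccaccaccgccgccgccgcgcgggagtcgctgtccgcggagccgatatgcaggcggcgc
Cyp1a1 held 1 match, 54 bases before the start, and Cyp1b1 held 1, 76 bases before it. Fndc5 held 1 match at the far end of its window, 248 bases before the start. Nqo1 and all 3 start sites of Hpca held none in these windows. The same letters occur in 28.2% of 32851 promoter windows of this length, so a match is a description of the sequence and no site of binding.

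Hpca and Fndc5 are neighbours on chromosome 4. Hpca encodes hippocalcin, a calcium sensor best known from neurons, and Fndc5 encodes the membrane precursor of irisin, a secreted peptide of muscle. Hpca (ENSMUSG00000028785.12, chromosome 4, 129111570 to 129122036, minus strand) was at 18.7, 11.5, 4.29 and 14.1 TPM on CHOW and between 1.32 and 3.44 TPM on HFD (median 1.78). Fndc5 (ENSMUSG00000001334.9, chromosome 4, 129136999 to 129144593, plus strand) was at 7.69, 4.32, 3.97 and 6.37 TPM on CHOW and between 0.577 and 2.1 TPM on HFD (median 1.33). In both genes the highest HFD library was below the lowest CHOW library. Hpca fell by 1.94 (SE 0.33, adjusted p 0.0282), and Fndc5 fell by 1.52 (SE 0.24, adjusted p 0.0194). The gene bodies are 15 kb apart and are read away from each other. Of 17 listed genes within 200 kb of the pair 13 were tested, and the other 11 had log2 fold changes from -0.31 to 0.49 with a median of -0.06. Among those 11, 2 were lower and 1 was higher at an unadjusted p under 0.05. None passed the adjusted threshold. Neither gene passed the threshold at 20 weeks, where Hpca had a log2 fold change of -0.04 (adjusted p 0.945) and Fndc5 of 0.16 (adjusted p 0.669). The change in the diet effect from 8 to 20 weeks was 1.68 (SE 0.32, adjusted p 0.0263) for Fndc5 and 1.9 (SE 0.45, adjusted p 0.0838) for Hpca. Both genes were picked by their 8 week values, which this change also uses, so it is biased away from 0. Of the neuronal calcium sensor family, to which Hpca belongs, 6 genes were tested, and Kcnip3 was the other one with an unadjusted p under 0.05 (-0.65).

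Adipocyte transcripts as a group were lower on HFD with 1 exception among the hormones. The list held 15 tested genes, of which 10 were lower and none was higher at an unadjusted p under 0.05, with a median log2 fold change of -0.65. Without HFD replicates 3 and 6 the counts were 8 lower and 1 higher. Of all genes 7.61% were lower with those 2 libraries and 4.18% without them. Cfd alone passed the adjusted threshold. Car3, a carbonic anhydrase of adipocytes, was at 1308, 1499, 609 and 1704 TPM on CHOW and between 176 and 787 TPM on HFD (median 388), a difference of -1.55 (SE 0.36, adjusted p 0.132). Pck1, the glyceroneogenic enzyme that supplies glycerol for re-esterification, was at 97.2, 105, 46.9 and 74.9 TPM on CHOW and between 5.58 and 69.4 TPM on HFD (median 18.4), a difference of -1.95 (SE 0.50, adjusted p 0.165). Cidec, which fuses lipid droplets, was at 297, 370.5, 178 and 366 TPM on CHOW and between 65.9 and 179 TPM on HFD (median 101), a difference of -1.39 (SE 0.31, adjusted p 0.121). In all 3 genes the groups overlapped, with CHOW replicate 3 below HFD replicate 3. The defining adipocyte genes had smaller differences. Adipoq (adiponectin) was at 127, 168, 73.5 and 164 TPM on CHOW and between 36.1 and 148 TPM on HFD (median 77.9) and differed by -0.71 (SE 0.31, adjusted p 0.467), and Plin1, the perilipin that coats lipid droplets, differed by -0.65 (SE 0.28, adjusted p 0.462). Lep (leptin) went the other way, with 12.5, 20.2, 5.25 and 27.3 TPM on CHOW and between 13.6 and 47.6 TPM on HFD (median 34.2), a difference of 1.04 (SE 0.52, adjusted p 0.538). Plin4, from the lipid uptake and storage list, differed by -0.88 (SE 0.29, adjusted p 0.324). The summed level of the 15 genes was 1829 to 4271 TPM on CHOW and 819 to 2213 TPM on HFD, or 0.183% to 0.427% and 0.0819% to 0.221% of the libraries. Floating adipocytes were removed during preparation, and the part of any that remained in these values was not tested. With the adipocyte score of each library as a covariate, none of the 4 called genes passed. In that fit the difference was -2.15 (adjusted p 0.226) for Cfd and -2.14 (adjusted p 0.166) for Cyp1a1. It was -1.38 (adjusted p 0.166) for Fndc5 and -1.56 (adjusted p 0.232) for Hpca. Adipocyte genes were themselves lower on HFD, so this fit cannot tell the adipocyte level apart from the diet.

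Genes of lipid-associated macrophages were higher on HFD, and more so in some libraries than in others. All 12 genes of the list had positive log2 fold changes (median 0.99), and 8 were higher and none was lower at an unadjusted p under 0.05. None passed the adjusted threshold. Without HFD replicates 3 and 6, 10 of the 12 were higher and none was lower. Of all genes 2.09% were higher with those 2 libraries and 8.28% without them. Gpnmb, a transmembrane glycoprotein of lipid-laden macrophages, was at 31.9, 66.2, 64.4 and 89 TPM on CHOW and between 149.8 and 944 TPM on HFD (median 215), with no overlap. Gpnmb differed by 2.36 (SE 0.56, adjusted p 0.132). Trem2, the lipid-sensing receptor that drives this macrophage state, was at 37.5, 49, 70.3 and 52.1 TPM on CHOW and between 77.2 and 429 TPM on HFD (median 108). Its groups did not overlap either, and Trem2 differed by 1.5 (SE 0.49, adjusted p 0.309). Atp6v0d2, a subunit of the vacuolar proton pump that acidifies lysosomes, was at 2.56, 13, 14.3 and 16 TPM on CHOW and between 23.7 and 153 TPM on HFD (median 37.2), a difference of 2.29 (SE 0.62, adjusted p 0.195). Fabp5, a fatty acid chaperone, was at 179, 178, 198 and 174 TPM on CHOW and between 254 and 552 TPM on HFD (median 371). The CHOW values of Fabp5 were close to one another, all HFD libraries lay above them, and the difference was 1.0 (SE 0.29, adjusted p 0.222). Mmp12, the macrophage elastase, differed by 2.39 (SE 0.76, adjusted p 0.285), but CHOW replicate 2 (172 TPM) lay above HFD replicate 3 (144 TPM). Itgax (CD11c, the integrin used to mark recruited fat macrophages) differed by 1.3 (SE 0.56, adjusted p 0.462), Ctsk (cathepsin K) by 0.98 (SE 0.39, adjusted p 0.411) and Cd9 by 0.51 (SE 0.20, adjusted p 0.406).

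In each of the 12 genes the same libraries, HFD replicates 2 and 4, held the 2 highest values of the 6 on HFD. Trem2, for example, was at 429 and 301 TPM in these libraries and at 116, 100.2, 77.2 and 83.2 TPM in replicates 1, 3, 5 and 6. HFD replicates 2 and 4 were also the lowest HFD libraries for Cfd, Cyp2e1 and Pck1, and the highest for Lep. Over the adipocyte list the pattern was mixed, since replicate 2 was among the 2 lowest for 10 of the 15 genes and replicate 6 for 11. Summed over the lipid-associated macrophage list, the level was 3338 to 4589 TPM on CHOW and 3823 to 11713 TPM on HFD. The general macrophage list (10 genes) had no gene past an unadjusted p under 0.05 and a median log2 fold change of -0.05. Its order on HFD was alike, with replicate 2 among the 2 highest for all 10 genes and replicate 4 for 9. Summed over that list, replicates 2 and 4 held 12613 and 10901 TPM, and the other HFD libraries between 5299 and 8926 TPM. Whether these 2 libraries hold more macrophage RNA in general was not tested. Of 14 tested lysosome genes 3 were higher and none was lower, with a median of 0.32. They were Lipa (lysosomal acid lipase, 0.80) and the genes Atp6v0d2 and Ctsk, which are also in the lipid-associated macrophage list. By the same count 7 lysosome genes were higher without HFD replicates 3 and 6, where 8.28% of all genes were. Replicate 2 was among the 2 highest HFD libraries for all 14 lysosome genes and replicate 4 for 13.

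**Figure D3:**
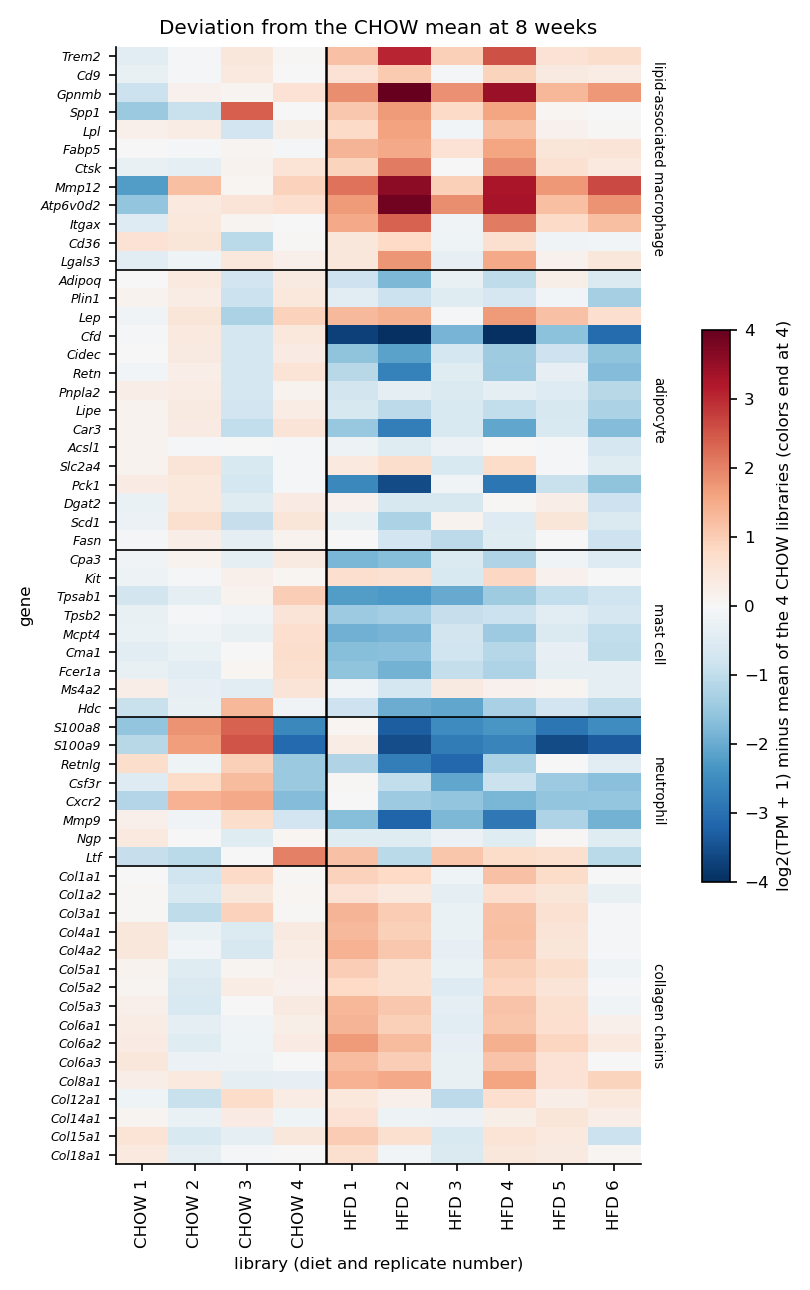
Rows are genes of 5 lists, columns are the 10 libraries, and the color is log2(TPM + 1) minus the mean of the 4 CHOW libraries, with red for higher and blue for lower. HFD replicates 2 and 4 are the most red for the lipid-associated macrophage genes and, with replicate 1, the most blue for Cfd and Pck1, while HFD replicate 3 is among the 2 lowest HFD libraries for all 16 collagen chains.

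Markers of resident macrophages leaned the other way. All 10 genes of the resident perivascular list had negative log2 fold changes (median -0.53). At an unadjusted p under 0.05, 5 were lower, or 3 without HFD replicates 3 and 6, beside 7.61% and 4.18% of all genes. Timd4, a receptor for phosphatidylserine on resident macrophages, was at 20.4, 14.7, 13.6 and 16.6 TPM on CHOW and between 2.87 and 10.5 TPM on HFD (median 7.96). No HFD library reached the CHOW range, and Timd4 differed by -1.14 (SE 0.26, adjusted p 0.121). Cbr2 (carbonyl reductase 2) was at 469, 342, 389 and 398 TPM on CHOW and between 172 and 309 TPM on HFD (median 259), also without overlap, a difference of -0.63 (SE 0.19, adjusted p 0.253). Cd209f, a C-type lectin, differed by -0.82 (SE 0.28, adjusted p 0.331) and Cd163, the scavenger receptor for hemoglobin and haptoglobin, by -0.59 (SE 0.23, adjusted p 0.407), both with overlap. Lyve1, the hyaluronan receptor that gives these cells their usual name, was at 111, 55.9, 68.6 and 77.2 TPM on CHOW and between 59.8 and 76.3 TPM on HFD (median 67.9), and differed by -0.15 (SE 0.24, adjusted p 0.914). The HFD values of Lyve1 lay inside the CHOW range.

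Iron and heme genes were lower together with these markers. All 11 genes of the iron handling list had negative log2 fold changes (median -0.59). Of these, 5 had an unadjusted p under 0.05, or 3 without HFD replicates 3 and 6, beside 7.61% and 4.18% of all genes lower. Cd163 is in both this list and the resident macrophage list. Hmox1 (heme oxygenase 1, which breaks down heme) was at 2012, 1488, 2329 and 3544 TPM on CHOW and between 269.8 and 1594 TPM on HFD (median 825). HFD replicates 4 and 6 lay within the CHOW range and the other HFD libraries below it, and Hmox1 differed by -1.5 (SE 0.36, adjusted p 0.139). Cp (ceruloplasmin, the ferroxidase) was at 194, 186, 164 and 199 TPM on CHOW and between 74.8 and 150.4 TPM on HFD (median 96.4), without overlap, and differed by -0.83 (SE 0.20, adjusted p 0.146). Trf (transferrin) differed by -0.61 (SE 0.17, adjusted p 0.205), and Slc40a1 (ferroportin, the iron exporter) by -0.65 (SE 0.33, adjusted p 0.550). Hp (haptoglobin, which binds free hemoglobin) was at 372, 839, 453 and 402 TPM on CHOW and between 107 and 226 TPM on HFD (median 167), again without overlap, a difference of -1.59 (SE 0.33, adjusted p 0.0893). The hemoglobin share of the libraries, given above, differed between libraries of the same diet, and its part in these values was not tested.

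Complement genes beyond Cfd leaned lower, but few of them counted as lower without HFD replicates 3 and 6. Of 16 tested genes 7 were lower and none was higher at an unadjusted p under 0.05, with a median of -0.33. The count was 2 without HFD replicates 3 and 6, and Cfd was 1 of these 2 (-3.91, adjusted p 0.0140). Of all genes 7.61% were lower with those 2 libraries and 4.18% without them. Cfd is also in the adipocyte list. Cfb (factor B, the partner that factor D cleaves) differed by -0.73 (SE 0.30, adjusted p 0.418), C1ra (a C1 protease) by -0.44 (SE 0.16, adjusted p 0.366) and C5ar1 (the C5a receptor) by -0.69 (SE 0.29, adjusted p 0.449). The 3 subunits of C1q, which macrophages make, had log2 fold changes of -0.05, -0.04 and -0.05.

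**Figure D4:**
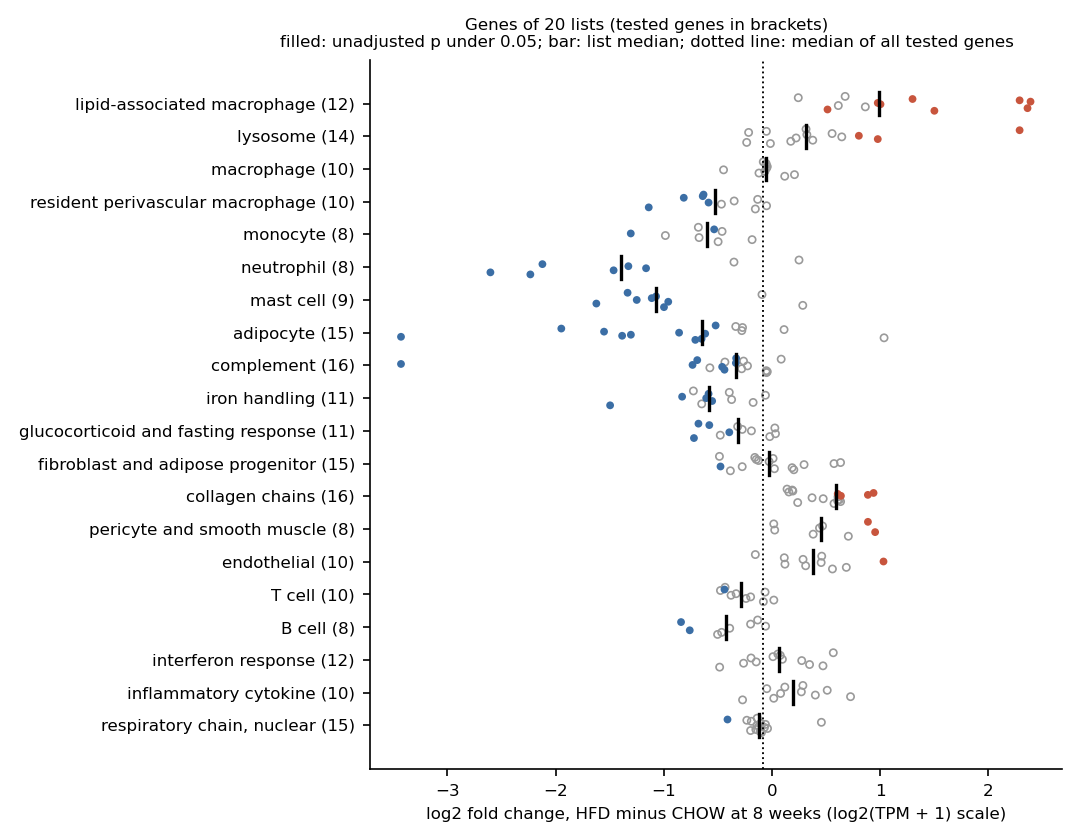
Each row is 1 of 20 gene lists with its number of tested genes, and each point is the log2 fold change of a gene at 8 weeks (HFD minus CHOW), filled where the unadjusted p was under 0.05. The list medians (bars) run from -1.40 for the neutrophil list to 0.99 for lipid-associated macrophages, against -0.08 for all genes (dotted line).

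Among circulating myeloid cells, the monocyte list (8 genes) had a median log2 fold change of -0.60, and Ace, the angiotensin-converting enzyme, differed by -0.53 at an unadjusted p under 0.05. Siglech, a lectin of plasmacytoid dendritic cells, was at 14.7, 14.1, 17 and 10.6 TPM on CHOW and between 2.8 and 9.42 TPM on HFD (median 4.44). It was the 1 gene of 9 in the dendritic cell list with an unadjusted p under 0.05, its groups did not overlap, and it differed by -1.33 (SE 0.32, adjusted p 0.138). Neutrophil genes had the lowest median of the lists, -1.40. At an unadjusted p under 0.05, 6 of 8 tested genes were lower, but 1 of 8 without HFD replicates 3 and 6, beside 7.61% and 4.18% of all genes. S100a8 and S100a9, the calprotectin subunits that fill the neutrophil cytosol, were uneven on CHOW itself. S100a8 was at 31, 332, 484 and 14.7 TPM on CHOW and between 8.62 and 100.1 TPM on HFD (median 16), so CHOW replicates 2 and 3 stood high and replicates 1 and 4 lay within the HFD range. S100a8 differed by -2.23 (SE 1.03, adjusted p 0.500) and S100a9 by -2.6 (SE 1.12, adjusted p 0.458). Csf3r (the G-CSF receptor) differed by -1.16 (SE 0.49, adjusted p 0.439) and Retnlg by -1.46 (SE 0.64, adjusted p 0.464). Mmp9 (gelatinase B), which neutrophils store in granules and macrophages also make, separated the diets. Mmp9 was at 51.2, 39.5, 71.6 and 25.4 TPM on CHOW and between 3.82 and 17.9 TPM on HFD (median 11.5), and no HFD library reached the CHOW libraries. Mmp9 differed by -2.12 (SE 0.39, adjusted p 0.0632), and it was the panel gene with the largest difference.

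Mast cell genes were lower on HFD at 8 weeks. Mast cells store histamine, tryptases and chymases in granules. Of 9 tested genes 7 were lower and none was higher at an unadjusted p under 0.05 (7 and 1 without HFD replicates 3 and 6), and the median was -1.07. The share of all genes that were lower was 7.61%, or 4.18% without those 2 libraries. The tryptase Tpsab1 was at 14.7, 19, 27.4 and 49.9 TPM on CHOW and between 4.3 and 13.8 TPM on HFD (median 7.08), and the chymase Mcpt4 was at 92, 102, 91.2 and 179.8 TPM on CHOW and between 28.8 and 73.6 TPM on HFD (median 48.1). Neither overlapped between the diets. Tpsab1 differed by -1.62 (SE 0.40, adjusted p 0.149), Mcpt4 by -1.25 (SE 0.36, adjusted p 0.215) and Tpsb2, its neighbouring and similar tryptase, by -0.96 (SE 0.31, adjusted p 0.291). Hdc, which makes histamine, differed by -1.33 (SE 0.39, adjusted p 0.222), Cpa3 (carboxypeptidase A3) by -1.0 (SE 0.38, adjusted p 0.377) and Fcer1a (the IgE receptor chain) by -1.07 (SE 0.41, adjusted p 0.386). Kit, the stem cell factor receptor of mast cells, was at 7.45, 8.45, 10.2 and 9.25 TPM on CHOW and between 5.48 and 16.5 TPM on HFD (median 12), a difference of 0.28 (SE 0.25, adjusted p 0.774). At 20 weeks the direction was opposite, with 8 of the 9 genes higher on HFD (adjusted p under 0.05). The change in the diet effect between the times passed the adjusted threshold for 6 of the 9 genes, against 0.297% of all genes, and for Tpsab1 it was 3.2 (SE 0.55, adjusted p 0.0155). At 20 weeks Mcpt4 was at 158 ± 30.0 TPM on CHOW and 499 ± 226 TPM on HFD (SD, n = 5 and n = 6), while at 8 weeks it was at 116 ± 42.7 TPM on CHOW and 49.3 ± 19 TPM on HFD (n = 4 and n = 6).

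Collagen genes leaned higher on HFD, while the matrix turnover list had a median of -0.01, with 8 positive and 9 negative log2 fold changes. All 16 collagen chain genes had positive log2 fold changes (median 0.59), and 4 were higher and none lower at an unadjusted p under 0.05. By the same rule 12 were higher without HFD replicates 3 and 6. Of all genes 2.09% were higher with those 2 libraries and 8.28% without them. HFD replicate 3 was among the 2 lowest HFD libraries for all 16. Col8a1, a short-chain collagen of vessels, was at 6.03, 6.67, 3.55 and 3.63 TPM on CHOW and between 3.74 and 16.2 TPM on HFD (median 12), a difference of 0.94 (SE 0.34, adjusted p 0.350). Col6a2 was at 275, 156, 198 and 279 TPM on CHOW and between 177 and 725 TPM on HFD (median 465), a difference of 0.89 (SE 0.33, adjusted p 0.359). Col6a1 and Col6a3, the other main chains of collagen VI, the microfibrillar collagen around fat cells, differed by 0.64 (SE 0.29, adjusted p 0.489) for Col6a1 and by 0.61 (SE 0.26, adjusted p 0.457) for Col6a3. Col1a1, the fibrillar collagen of scars, differed by 0.57 (SE 0.33, adjusted p 0.602). In all 5 of these genes the diets overlapped. Tnc (tenascin C, a glycoprotein of remodeling matrix) was at 6.19, 6.56, 5.14 and 6.31 TPM on CHOW and between 6.14 and 33.9 TPM on HFD (median 19.5). The 4 CHOW libraries were close together, HFD replicate 3 lay among them, and Tnc differed by 1.34 (SE 0.39, adjusted p 0.220). Of the 18 genes in the panel of matrix and remodeling genes used for qPCR, 2 were higher (Tnc and Col6a3) and 1 was lower (Mmp9) at an unadjusted p under 0.05, with a median of 0.25, and 8 were higher and 1 lower without HFD replicates 3 and 6. Lox, which cross-links collagen and sits in the matrix turnover list, differed by -0.48 (SE 0.20, adjusted p 0.428).

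Some matrix genes did not pass the threshold on TPM as deposited but passed it in some alternatives, and, except Ccn5, they were picked after these values were seen. Ccn5, a matricellular protein of the CCN family, was at 1.87, 3.27, 2.49 and 4.08 TPM on CHOW and between 6.76 and 13.4 TPM on HFD (median 7.96), with all HFD libraries above all CHOW libraries. Ccn5 differed by 1.33 (SE 0.25, adjusted p 0.0632), and by 1.42 (adjusted p 0.0325) after TPM had been rescaled without hemoglobin and seminal vesicle genes and 1.42 (adjusted p 0.0203) with median-ratio scaling. It also passed with the filter set on the 8 week libraries (1.33 (adjusted p 0.0497)) and with adjustment for the adipocyte score (1.69 (adjusted p 0.0496)), but not without HFD replicates 3 and 6 (1.44 (adjusted p 0.0579)). Postn (periostin, a fibroblast matrix protein) was at 226, 164, 148 and 153 TPM on CHOW and between 160.0 and 612 TPM on HFD (median 457). The lowest HFD library was replicate 3, the only one inside the CHOW range, and the other 5 lay above it. Postn differed by 1.18 (SE 0.28, adjusted p 0.134) with all libraries, by 1.52 (adjusted p 0.0140) without HFD replicates 3 and 6 and by 1.29 (adjusted p 0.0203) with median-ratio scaling. Thbs2 (thrombospondin 2) was at 19.3, 17, 16.1 and 21.5 TPM on CHOW and between 17.4 and 54.2 TPM on HFD (median 39.2), again with replicate 3 lowest. The difference for Thbs2 was 0.88 (SE 0.22, adjusted p 0.150) with all libraries, 1.07 (adjusted p 0.0306) without HFD replicates 3 and 6 and 0.98 (adjusted p 0.0203) with median-ratio scaling. Cthrc1, a secreted protein of activated fibroblasts, was at 0.585, 0.665, 1.55 and 0 TPM on CHOW and between 0.968 and 8.13 TPM on HFD (median 3.61), and went from 1.45 (SE 0.35, adjusted p 0.138) with all libraries to 1.83 (adjusted p 0.0428) without those 2, but did not pass with median-ratio scaling (1.49 (adjusted p 0.0757)). Rescaling without hemoglobin and seminal vesicle genes left all 3 short of the threshold, with 1.26 (adjusted p 0.0855) for Postn, 0.96 (adjusted p 0.0855) for Thbs2 and 1.55 (adjusted p 0.105) for Cthrc1.

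Vessel and mural genes leaned the same way as collagens, but CHOW replicate 3 was low for both lists. Summed pericyte and smooth muscle genes were at 111 TPM in that library and at 260 to 321 TPM in the other CHOW libraries. On HFD they were at 129 to 551 TPM. Summed endothelial genes were at 396 TPM in CHOW replicate 3 and at 1357 to 1725 TPM in the other CHOW libraries. Their median was 1522 TPM on CHOW and 1467 TPM on HFD. All 8 pericyte and smooth muscle genes had positive log2 fold changes (median 0.45). At an unadjusted p under 0.05, 2 were higher, or 6 without HFD replicates 3 and 6, beside 2.09% and 8.28% of all genes. Cspg4 (NG2, the pericyte proteoglycan) was at 3.11, 2.31, 0.457 and 1.54 TPM on CHOW and between 1.25 and 8.33 TPM on HFD (median 4.71), a difference of 0.95 (SE 0.35, adjusted p 0.360). Kcnj8, a potassium channel of pericytes, differed by 0.89 (SE 0.37, adjusted p 0.449). Of 10 endothelial genes 1 was higher, Vwf (von Willebrand factor, 1.03), with a median of 0.38. Apln (apelin, a peptide that adipocytes and sprouting endothelium secrete), from the list of exercise-linked secreted factors, was at 4.36, 6.93, 2.76 and 6.36 TPM on CHOW and between 5.75 and 28.5 TPM on HFD (median 15.4) and differed by 1.37 (SE 0.40, adjusted p 0.235). Only the HFD replicate 3 value of Apln lay inside the CHOW range. The fibroblast and progenitor list (15 genes, median -0.03, 1 lower) and the mesothelial list (9 genes, median -0.01, none past the unadjusted threshold) had medians near that of all genes.

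Lymphocyte lists held few genes past the unadjusted threshold, where 7.61% of all genes were lower and 2.09% higher. At an unadjusted p under 0.05 the T cell list had 1 lower gene of 10 (Lck, -0.45), the regulatory T cell list 1 lower of 8, the NK and cytotoxic list none of 9, and the group 2 innate lymphoid list 1 lower of 8. Of 8 B cell genes 2 were lower, Blk (-0.84) and Cd79b (-0.76), and all 8 had negative log2 fold changes (median -0.43), while none counted as lower without HFD replicates 3 and 6. Sdc1 (CD138), which plasma cells carry but macrophages and epithelia also make, was at 20.8, 21.9, 28.2 and 23.7 TPM on CHOW and between 30.6 and 91.1 TPM on HFD (median 43.2). It was higher in every HFD library than in any CHOW library, differed by 1.06 (SE 0.27, adjusted p 0.165), and was the 1 gene of 9 in the plasma cell list past the unadjusted threshold. Foxp3, the regulatory T cell factor, was low, with 0.647, 0.985, 0.964 and 0.968 TPM on CHOW and between 0.485 and 3.47 TPM on HFD (median 1.5). The eosinophil list (6 tested genes) had none past that threshold.

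Among inflammatory and metabolic programmes the counts were uneven. None of 10 inflammatory cytokine genes (median 0.20), none of 12 interferon response genes (median 0.07) and none of 12 cholesterol genes (median 0.07) had an unadjusted p under 0.05. Of 19 chemokines, Ccl26 was higher (1.59) and Cxcl13 (-1.72) and Cxcl12 (-0.51) were lower by that measure. Cxcl13, which draws B cells to fat-associated lymphoid clusters, ranged from 2.48 to 114 TPM among the CHOW libraries alone. The summed inflammatory cytokine level was also uneven on CHOW, at 6476 TPM in replicate 3 and 824 to 915 TPM in the others. On HFD that sum was 572 to 2264.5 TPM, so the cytokine count cannot show that the levels were equal. In the MHC class II list 1 of 8 genes was higher, Ciita, its master regulator (0.64). Without HFD replicates 3 and 6 it was 6 of 8, where 8.28% of all genes were higher. Of 11 glucocorticoid and fasting response genes 4 were lower and none was higher (2 lower without HFD replicates 3 and 6), beside 7.61% of all genes. Among them were Fkbp5, the co-chaperone that glucocorticoids induce (-0.72 (SE 0.24, adjusted p 0.309)), and the metallothioneins Mt1 (-0.58 (SE 0.17, adjusted p 0.233)) and Mt2 (-0.68 (SE 0.21, adjusted p 0.254)). Of 13 immediate early and heat shock genes 2 were higher, Fos (0.81) and Egr1 (0.67), and 7 without HFD replicates 3 and 6, beside 2.09% and 8.28% of all genes. Nuclear respiratory chain genes (15) had a median of -0.12 with Cycs lower (-0.42), mitochondrially encoded ones (9) a median of -0.10 with none past the threshold, proliferation genes (14) a median of 0.37 with Cdk1 higher (0.96), and clock genes (13) a median of -0.07 with Cry1 lower (-0.53). Nampt, which makes NAD and is secreted by fat, differed by -0.46 (SE 0.15, adjusted p 0.278).

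Under the naming rule 22 genes qualified on the higher and 209 on the lower side, by an unadjusted p under 0.05, a mean of at least 5 TPM in a group and no overlap between diets. The 10 largest on the higher side included, beside genes given above, F7 (coagulation factor VII, 1.71, 4.69, 6.4 and 6.76 TPM on CHOW and between 7.86 and 49.8 TPM on HFD (median 22.9)), Vsig8 (0.645, 3.91, 3.43 and 4.02 TPM on CHOW and between 7.43 and 36.7 TPM on HFD (median 10.0)) and Rnf128, an E3 ubiquitin ligase (1.12, 4.6, 4.2 and 4.61 TPM on CHOW and between 8.41 and 32 TPM on HFD (median 10.8)). HFD replicates 2 and 4 were the highest libraries for all 3 genes, as they were for the lipid-associated macrophage genes. These genes differed by 2.09, 2.0 and 1.77 (adjusted p 0.205, 0.189 and 0.205). Prnd (doppel, a prion-like protein) was at 1.93, 2.26, 0.343 and 2.37 TPM on CHOW and between 2.9 and 13 TPM on HFD (median 7.5), and differed by 1.49 (SE 0.41, adjusted p 0.205). Lars2, the mitochondrial leucyl-tRNA synthetase, was at 503, 139, 530.1 and 176 TPM on CHOW and between 731 and 1119 TPM on HFD (median 916), and AA474408 was at 122, 28.2, 132 and 41.8 TPM on CHOW and between 177 and 343 TPM on HFD (median 230.0). The ratio of Lars2 to AA474408 stayed between 3.26 and 4.92 in the 10 libraries, whereas each gene ranged widely among the CHOW libraries. Lars2 differed by 1.67 (SE 0.46, adjusted p 0.205) and AA474408 by 1.82 (SE 0.49, adjusted p 0.190). On the lower side, Ces1f, a carboxylesterase of liver and fat, was at 6.59, 5.26, 4.72 and 3.87 TPM on CHOW and between 0.279 and 2.19 TPM on HFD (median 1.17), a difference of -1.55 (SE 0.29, adjusted p 0.0653). Apoc1, a lipoprotein component, was at 35.2, 53.7, 35.4 and 42.5 TPM on CHOW and between 4.62 and 28.5 TPM on HFD (median 15.1), a difference of -1.54 (SE 0.40, adjusted p 0.182).

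The 8 week differences were set beside those at 20 weeks, where 5 CHOW and 6 HFD libraries of other mice were measured, and at 34 weeks, where 7 and 6 were measured in a separate table. Of 50 genes that were higher on HFD without overlap and at an unadjusted p under 0.05 at 8 weeks, 21 (42.0%) were called higher at 20 weeks, where 1566 of all genes (9.32%) were. Of 266 such lower genes, 41 (15.4%) were called lower at 20 weeks, against 839 of all genes (4.99%), and 215 had the same sign, as had 38 of the 50 higher genes. At 34 weeks, where 34 of 13982 genes (0.243%) were called, 1 of 41 tested higher genes was called higher and 30 had the same sign. None of 244 lower genes was called lower there, 2 were called higher, and 107 had the same sign (median log2 fold change 0.06). Of the 9 mast cell genes, which leaned lower at 8 weeks, 4 were called higher at 34 weeks (median 2.53). Lipid-associated macrophage genes had larger effects at 20 than at 8 weeks, with 11 of 12 called higher (median 2.69), although no interaction of the 12 passed the adjusted threshold. For Gpnmb the change in the diet effect was 1.58 (SE 0.77, adjusted p 0.365). Resident macrophage genes were called lower at 20 weeks in 7 of 10 cases (median -1.54), and 3 interactions passed, all negative (0.137% of all genes), among them Lyve1 with -1.96 (SE 0.33, adjusted p 0.0155) and Cd163 with -1.82 (SE 0.32, adjusted p 0.0155). Of the 15 adipocyte genes 8 were called lower at 20 weeks, and no interaction among them passed the threshold. Mmp9 was called lower at 20 weeks (-3.14, adjusted p 2.02e-05). The interferon list, with none past the unadjusted threshold at 8 weeks, had 9 of 12 genes called lower at 20 weeks, and none of its interactions passed the threshold.

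**Figure D5:**
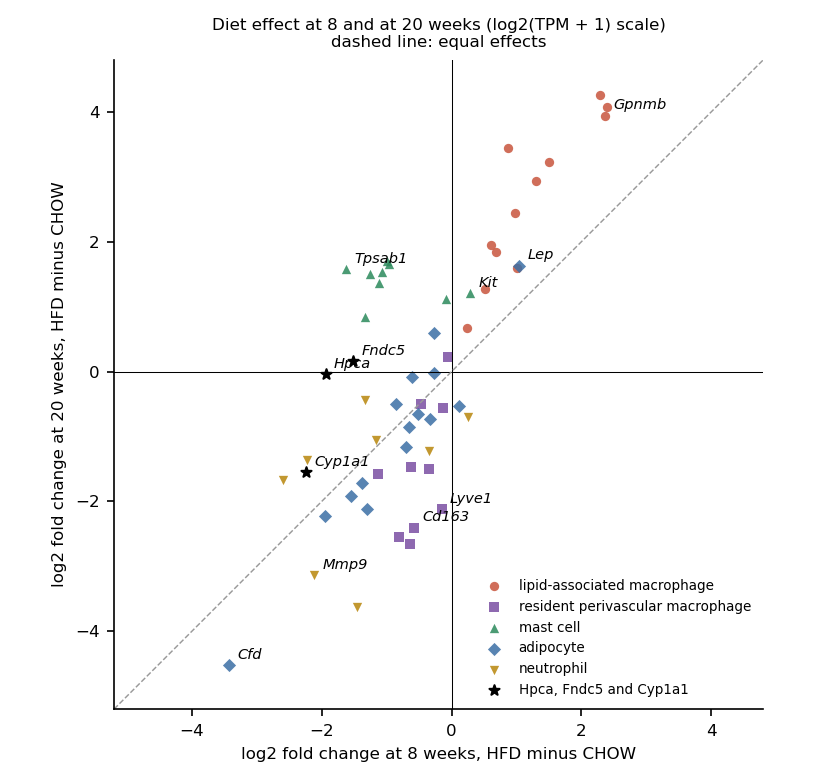
The log2 fold change of HFD against CHOW at 8 weeks (x axis) and at 20 weeks (y axis) for genes of 5 lists and for Hpca, Fndc5 and Cyp1a1, with a dashed line for equal effects. Lipid-associated macrophage genes lie above the line on the higher side, mast cell genes lie in the upper left, and Hpca and Fndc5 lie near 0 at 20 weeks.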

How the data were processed

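Per the study's methods, the authors ran quality checks (FastQC, MultiQC), trimming (Trimmomatic) and transcript quantification (Salmon, gencode M10, mm10), in versions that the sources used here do not give. They deposited gene-level TPM values, with the 21 libraries of 8 and 20 weeks in a first table and the 13 of 34 weeks in a second. TPM sums to the same total in each library and keeps no read depth, so no counting interval is given. The count-based test the authors ran (DESeq2) was not used here.

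Gene IDs (32098) were matched to gencode M21 (GRCm38) without their version, and 31791 had a symbol. Groups and replicate numbers came from the sample titles. A gene was tested if 4 of the 21 libraries (6 of 13 at 34 weeks) reached 1 TPM. Tests were made on log2(TPM + 1) with limma 3.58.1 in R 4.3.3 (group means, eBayes with a mean-variance trend, two-sided, Benjamini-Hochberg adjustment over all genes tested, threshold 0.05). The 21 libraries of 8 and 20 weeks shared 1 fit, which was tested on simulated data, and the interaction is the effect at 20 minus the effect at 8 weeks. The 34 week table was fitted alone. Errors are SDs for TPM and SEs for log2 fold changes.

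Of 46 gene lists (475 genes, 28 in more than 1 list), 24 describe cell types and 22 programmes. Lists are given by counts and medians, with no test. Named genes were those called, up to 10 on each side by log2 fold change with an unadjusted p under 0.05, a mean of 5 TPM and no overlap, the first 2 and the 3 lowest p of each list, and the neighbours of Hpca and Fndc5 within 200 kb. The qPCR panel of 18 genes was also in the rule and is given by its count and by 4 of its genes. Members and lists were chosen with earlier results of these data known. Alternatives were another pseudocount, filter, scaling, weighting, covariate, block or set of libraries. For the monocyte list, the count of genes past the unadjusted threshold is not reported here.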

Additional observations from a re-analysis of the deposited data

Results flagged for a closer look

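Outlying libraries were looked for in each diet group, over 196 sets of values, and 15 were found. The sets were the genes named in the report and the summed levels of some lists, such as hemoglobin, seminal vesicle and germ cell. Most list sums were not searched. Among these, summed inflammatory cytokine genes were at 6476 TPM in CHOW replicate 3 and at most 915 TPM in the other CHOW libraries. Chance alone gives about 1 in 20 such sets if values are normally distributed, which TPM need not be. Cyp1a1 in CHOW replicate 1 (14 TPM) stood above the next CHOW library (3.17 TPM), and in HFD replicate 6 (0.340 TPM) above 5 libraries at 0. Rnf128 was lowest in CHOW replicate 1 (1.12 TPM, next 4.20 TPM), as was Foxp3 (0.647 TPM, next 0.964 TPM). Cbr2 was lowest in HFD replicate 3 (172 TPM). HFD replicate 1 held the highest HFD values of Cd209f (379 TPM), S100a8 (100.1 TPM) and S100a9 (256 TPM, next 32.8 TPM). Ace was highest in HFD replicate 5 (228 TPM) and Mcpt4 in CHOW replicate 4 (179.8 TPM, next 102 TPM). Summed hemoglobin was lowest in CHOW replicate 3 (35210.0 TPM, next 83195 TPM) and highest in HFD replicate 6 (267370.0 TPM, next 112990.0 TPM). Summed seminal vesicle genes stood out in HFD replicate 3 (122570.0 TPM, next 0.557 TPM) and, at a low level, in CHOW replicate 4 (16.7 TPM, next 1.03 TPM). Summed germ cell genes were highest in HFD replicate 4 (1245 TPM, next 213 TPM).

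Between 8 and 20 weeks the effect of the diet shifted for 9 of the 93 named genes tested for it (limma interaction, adjusted p under 0.05), beside 0.297% of all genes. Named genes were picked in part by their 8 week values, which the interaction also uses. A gene picked for a large 8 week effect is thus biased toward a shift of the opposite sign, and the 2 shares cannot be compared directly. The differences were positive for Fndc5, 1.68 (SE 0.32, adjusted p 0.0263), and for the mast cell genes Tpsab1, 3.2 (SE 0.55, adjusted p 0.0155), Mcpt4, 2.75 (SE 0.49, adjusted p 0.0167), Tpsb2, 2.62 (SE 0.42, adjusted p 0.0108), Cpa3, 2.7 (SE 0.52, adjusted p 0.0263), and Fcer1a, 2.61 (SE 0.56, adjusted p 0.0470). They were negative for Lyve1, -1.96 (SE 0.33, adjusted p 0.0155), Cd163, -1.82 (SE 0.32, adjusted p 0.0155), and Foxp3, -1.93 (SE 0.38, adjusted p 0.0308). The mast cell genes were the larger group here, and their part as different cell numbers or as different RNA per cell cannot be told apart.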

How the results depend on the processing

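The count of 4 called genes kept within 1.5 times under a pseudocount of 0.1 TPM (4), a filter at 5 TPM (5), rescaling without hemoglobin and seminal vesicle genes (6) and no mean-variance trend (4). The count was 1 without a filter, 8 with the filter set on the 8 week libraries, 7 with quantile normalization, 8 with median-ratio scaling, 1 in a fit of the 8 week libraries alone, 209 with sample quality weights, 2 with the adipocyte score as a covariate and 12 without the seminal vesicle and hemoglobin libraries (HFD replicates 3 and 6). All 4 called genes were lower on HFD, but the 1 gene called in the fit of the 8 week libraries alone and both genes called with the covariate were higher, as were 87 of the 209. With 1 library left out the count ranged from 0 to 35. Leaving out CHOW replicate 1 or HFD replicate 6 gave 1 gene, CHOW replicate 2 gave 2, CHOW replicate 3 gave 35 and CHOW replicate 4 gave 0, while HFD replicate 3 gave 17 and HFD replicate 5 gave 23. Replicate numbers are shared by the diets, but deviations of same-numbered libraries correlated at 0.148, 0.210, 0.026 and 0.026 for replicates 1 to 4, so they were not taken as pairs. With a replicate block the count was 17. The cause of these differences was not tested, except that the filter and left-out fits test fewer or other genes or libraries.

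The call held in 12 of 23 alternatives for Cfd (adjusted p 0.00176 to 0.309), 19 of 22 for Cyp1a1 (0.00126 to 0.198), 13 of 23 for Hpca (0.00259 to 0.248) and 17 of 23 for Fndc5 (0.00252 to 0.198), and all their log2 fold changes stayed negative. None of the 4 passed in the fit of the 8 week libraries alone, with the covariate or without CHOW replicate 4. Without CHOW replicate 1 or HFD replicate 6, Cyp1a1 alone passed. The log2 fold changes of Adipoq (0.10), Plin1 (0.014) and Kit (-0.029) changed sign with the covariate, and that of Lyve1 without CHOW replicate 1 (0.026, with a range of -0.298 to 0.026 over the left-out libraries). None of these was past the threshold. Depth is unknown, which limits what can be said of low genes such as Cyp1a1.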

Other observations

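Other lists are given by their counts. Of 17 matrix turnover genes 1 was higher and 2 were lower at an unadjusted p under 0.05, of 18 lipid uptake and storage genes 1 was higher and 2 were lower, and of 9 alternative activation genes 1 was lower. Of all genes 2.09% were higher and 7.61% lower. Without HFD replicates 3 and 6 the counts were 3 higher and 1 lower, 5 higher and 1 lower, and 1 higher and 0 lower. Beside these, 8.28% of all genes were higher and 4.18% lower. With all libraries, Apln was higher and Fndc5 and Nampt were lower at an unadjusted p under 0.05 among 8 exercise-linked secreted factors. The share of all genes in both directions was 9.7%, and Fndc5 also passed the adjusted threshold. None of 10 germ cell, 5 epididymis, 4 hemoglobin or 1 tested Schwann cell genes had an unadjusted p under 0.05.

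Endod1, a secreted nuclease-like protein that was picked after its values were seen, was at 5.03, 6.74, 6.05 and 4.8 TPM on CHOW and between 7.7 and 12.2 TPM on HFD (median 9.66). All HFD libraries lay above all CHOW libraries, and Endod1 differed by 0.67 (SE 0.14, adjusted p 0.0893), by 0.77 (adjusted p 0.0203) with median-ratio scaling and by 0.52 (adjusted p 0.263) with the adipocyte score as a covariate. Across genes, log2(TPM + 1) of CHOW replicate 3 correlated with the other CHOW libraries at a median r of 0.927 and with the HFD libraries at 0.932. HFD replicate 6 correlated at 0.957 with the other HFD libraries and at 0.962 with CHOW, as a description across genes, which are not independent.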
